A study of Mus musculus with 6 samples.

Results

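Cadherins, the epithelial adhesion molecule Epcam and the catenins were examined in RNA from 6 cultured mouse mammary cell lines. The members were 8 genes chosen by name: the cadherins Cdh1, Cdh2, Cdh3 and Cdh11, Epcam, and the catenins Ctnnb1, Ctnna1 and Ctnnd1. Of these, 7 matched a row of the deposited table of 23449 genes, and Cdh11 was not analysed here. After a filter on low counts 13698 genes were tested, among them 6 members, since Cdh3 did not pass.

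The tested lines are labelled 16IC (genotype 16IC/WT) and their comparators EIC (genotype EIC/WT), with 3 lines each. By what is known of the study, though not by the sample labels, induced 16IC cells make a form of the HER2 receptor without exon 16, and induced EIC cells the full-length receptor (ErbB2). All 6 lines are female FVB/N mammary cells grown with doxycycline at 10 ug/mL in 10% serum with EGF, insulin and pituitary extract, so no line without doxycycline was compared. The driver of the transgenes, and whether a line is 1 clone or which animal it came from, are not stated in the labels. The lines 16IC 1 to 3 carry the titles 16IC_1984, 16IC_4982 and 16IC_7391, and EIC 1 to 3 the titles EIC_4026, EIC_NT and EIC_7559. P-values therefore measure the spread between these 6 samples only.

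Classical cadherins are membrane proteins that bind the same cadherin on a neighbouring cell. Their cytoplasmic tail holds beta-catenin (Ctnnb1), which links through alpha-catenin (Ctnna1) to actin, and p120-catenin (Ctnnd1), which keeps the cadherin at the surface. E-cadherin (Cdh1) is the main cadherin of luminal mammary epithelium, P-cadherin (Cdh3) that of myoepithelial cells, and N-cadherin (Cdh2) that of many mesenchymal cells. Replacement of E-cadherin by N-cadherin is the cadherin switch of the epithelial-mesenchymal transition. Epcam is an adhesion and signalling protein of simple epithelia that is not a cadherin.

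Library totals ran from 15621563 to 16091846 counts in 16IC and from 16742109 to 17468498 in EIC. The lines 16IC 1 and 16IC 2 were nearly alike (Spearman correlation 0.989 across tested genes), while 16IC 3 stood apart from them (0.874 and 0.880), no closer than to the EIC lines (0.871 to 0.885). EIC 2 stood apart from EIC 1 and EIC 3 to a lesser degree (0.925 and 0.917, against 0.979 between those lines). A fit without 16IC 3 thus takes its spread within 16IC from the nearly alike lines 16IC 1 and 16IC 2 alone. This limits every call given below for that fit. Mitochondrial genes took 2.0, 2.22 and 3.39% of counts in 16IC 1 to 3, against 1.5, 0.926 and 1.38% in EIC 1 to 3. Results below are therefore given line by line for the members, while some genes of the lists are given as group means or fold changes. In bulk RNA, fewer cells with a transcript and less transcript per cell cannot be told apart.

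The labelled tissue was checked against keratins of mammary epithelium. Krt8 and Krt18, keratins of simple epithelium, were present in every line, at 563 to 2652 CPM across 16IC lines and 661 to 1929 CPM across EIC lines, where CPM is the count scaled to a common library size. The other keratins of the list divided the lines without an edgeR call. Krt7 had 2784, 2785 and 207 CPM in 16IC 1 to 3, against 434, 51.8 and 169 CPM in EIC 1 to 3 (adjusted p = 0.179). Krt19, a luminal keratin, had 0, 0 and 0.649 CPM in 16IC 1 to 3, against 7.70, 198 and 10.1 CPM in EIC 1 to 3 (edgeR adjusted p = 0.0899). Krt14, a basal keratin, had 13.1, 1.28 and 1.10 CPM in 16IC 1 to 3, against at most 0.120 CPM in EIC (edgeR adjusted p = 0.0748). Krt5, its partner in basal cells, was at or near 0 in all 6 lines (at most 0.0612 CPM). Of 7 leukocyte markers 5 stayed under 1 CPM in every line, and the summed level of the list was 12.5 to 20.2 CPM across 16IC lines and 14.9 to 47.8 CPM across EIC lines. That sum was carried mostly by Cd68, and Ptprc, the defining leukocyte marker, reached at most 0.306 CPM. Of 5 endothelial markers 4 stayed under 1 CPM in every line. The 7 fibroblast markers summed to 11.4 to 36.1 CPM across 16IC lines and 12.2 to 106 CPM across EIC lines, of which Pdgfra made up most in EIC 1 and EIC 3. Col1a1 (3.13 to 4.99 CPM across 16IC lines, 0.513 to 1.99 CPM across EIC lines) and Postn (2.39 to 8.04 CPM across 16IC lines, 0 to 1.06 CPM across EIC lines) lay the other way, with every 16IC line above every EIC line and no edgeR call (adjusted p = 0.131 and 0.194). Dcn reached at most 1.87 CPM. Fabp4, the adipocyte marker with a row, had 0.184 to 1.88 CPM across 16IC lines and 0.241 to 42.1 CPM across EIC lines.

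Epcam, the member with the largest difference between the groups, is shown with its promoter, because the repressors SNAI1, SNAI2, ZEB1, ZEB2 and TWIST1 are known to act through E-box motifs. RefSeq sequences (build GRCm38.p6) were held for 3 of the 8 members, Epcam, Ctnnd1 and Ctnnb1, in windows from 250 bases before to 50 after the annotated start. The E-box searched was CACCTG, whose other-strand reading is CAGGTG, so that both spellings mark the same motif. It is in capitals in the lines that follow, which give Epcam (chr17:87635729-87636028, plus strand) and, for contrast, the Ctnnd1 start nearest to the start of the gene in the deposited table (chr2:84650691-84650990, minus strand).
Epcam: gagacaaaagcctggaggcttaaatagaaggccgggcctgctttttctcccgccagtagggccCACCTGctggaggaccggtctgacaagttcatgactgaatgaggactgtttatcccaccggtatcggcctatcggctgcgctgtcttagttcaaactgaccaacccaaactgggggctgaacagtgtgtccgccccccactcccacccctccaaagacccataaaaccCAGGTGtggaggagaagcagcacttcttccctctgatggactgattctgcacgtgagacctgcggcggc
Ctnnd1: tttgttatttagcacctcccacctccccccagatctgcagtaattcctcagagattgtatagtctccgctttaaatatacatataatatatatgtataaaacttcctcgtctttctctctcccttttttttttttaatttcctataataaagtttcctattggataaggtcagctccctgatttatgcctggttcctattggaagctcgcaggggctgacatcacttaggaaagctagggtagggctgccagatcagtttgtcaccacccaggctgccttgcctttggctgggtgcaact
The Epcam window holds 2 such E-boxes, whose first bases lie 187 and 19 bases before the start, and the 2 windows of Ctnnd1 and the 2 of Ctnnb1 hold 0. Over 32851 promoter windows of the same length, 20.2% hold at least 1 and 2.88% hold at least 2. A match of letters is a description and shows no binding. Other forms of the E-box were not searched, so the counts hold for this form only and not for every site of the named repressors.

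Epcam (ENSMUSG00000045394, chromosome 17, 87635979 to 87651106, plus strand, mm10) had 1160, 1345 and 51.1 CPM in 16IC 1 to 3, against 0.456, 1.08 and 3.79 CPM in EIC 1 to 3. The groups did not overlap, and the lowest 16IC line lay 13.5-fold above the highest EIC line. Within 16IC, however, 16IC 3 had 0.0408 of the mean level of the other lines. Group means were 852 ± 700 CPM over the 16IC lines and 1.78 ± 1.77 CPM over the EIC lines (SD, n = 3 each), and the EIC levels rested on 8, 18 and 61 counts. The log2 fold change was 8.91 (SE 1.63, 95% interval 4.96 to 12.86). It lay just outside the threshold in the quasi-likelihood test of edgeR, adjusted by Benjamini-Hochberg over all tested genes (adjusted p = 0.0517). The call turned on the setting: Epcam was called without 16IC 3 (adjusted p = 0.00813), with a filter of 1 CPM in 3 libraries (0.0497) and with DESeq2 (3.67e-14), and the adjusted p reached 0.174 without 16IC 1. With 16IC 1 and 16IC 2 averaged the edgeR adjusted p was 0.171.

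Cdh1 (ENSMUSG00000000303, chromosome 8, 106603351 to 106670246) had 1054, 994 and 271 CPM in 16IC 1 to 3, against 88.7, 307 and 56.4 CPM in EIC 1 to 3. The groups overlapped, as EIC 2 lay above 16IC 3, and 8 of 9 pairings of a 16IC line with an EIC line had the higher level in 16IC. E-cadherin transcripts were thus present in all 3 EIC lines, with at least 907 counts in each, where Epcam had at most 61. Means were 773 ± 436 CPM over the 16IC lines and 151 ± 137 CPM over the EIC lines (SD, n = 3 each). The log2 fold change of 2.36 (SE 0.81, 95% interval 0.39 to 4.32) did not pass edgeR's test (adjusted p = 0.159). Without EIC 2 it was 3.41, still not called (adjusted p = 0.0849), and of 14 alternatives DESeq2 alone called it (adjusted p = 0.0222).

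Cdh3 (ENSMUSG00000061048, chromosome 8, 106510891 to 106557297), which lies 46053 bases before Cdh1 on the same strand, had 90, 78 and 0 counts in 16IC 1 to 3, against 2, 2 and 0 counts in EIC 1 to 3. P-cadherin RNA was thus found at a low level in 16IC 1 and 16IC 2, at 5.42 and 4.77 CPM, and was at or close to 0 in the other 4 lines. A count of 0 was the reading in 16IC 3, although Cdh1 next to it had 4172 counts there. The gene did not pass the filter on low counts, and with no filter edgeR did not call it (log2 fold change 5.29, adjusted p = 0.20), while it was called without 16IC 3 (adjusted p = 0.0152) and with DESeq2 (0.0148).

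Cdh2 (ENSMUSG00000024304, chromosome 18, 16588877 to 16809246) had 95.3, 102 and 217 CPM in 16IC 1 to 3, against 88.2, 150 and 97.5 CPM in EIC 1 to 3. The highest level was in 16IC 3 and the next in EIC 2, and the other 4 lines lay between 88.2 and 102 CPM. Means were 138 ± 68.6 CPM over the 16IC lines and 112 ± 33.2 CPM over the EIC lines (SD, n = 3 each), a difference smaller than the spread within 16IC. The log2 fold change was 0.30 (95% interval -0.64 to 1.25, edgeR adjusted p = 0.694), so that the data allow a difference of over 1 log2 unit in favour of 16IC. Without 16IC 3 the log2 fold change was -0.18 (edgeR adjusted p = 0.692). No setting called Cdh2.

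**Figure D1:**
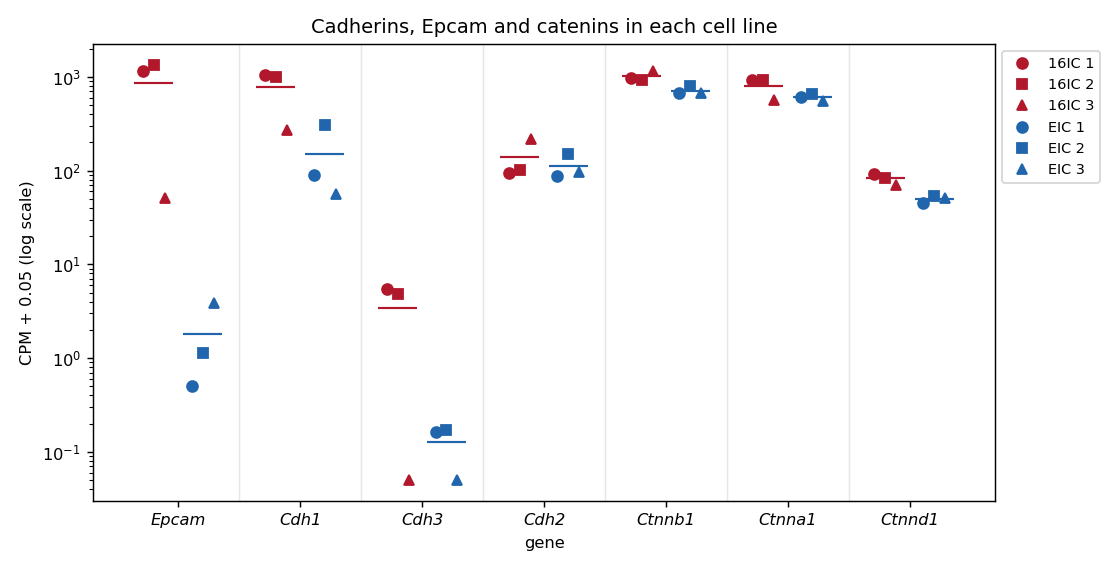
Level of each member with a row in the table (CPM + 0.05, log scale) in the 3 16IC lines (red, left in each column) and the 3 EIC lines (blue, right), 1 symbol a line, with a bar at the group mean. Epcam separates the groups, 16IC 3 lies well below the other 16IC lines for Epcam, Cdh1 and Cdh3, and Cdh2 and the catenins span at most 2.46-fold across the 6 lines.

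Levels of different cadherins were compared per length, as CPM per kilobase of the gene length in the table. Over the 12 cadherins with a row among those listed, Cdh1 made up 93.3, 92.8 and 61.1% of the summed level in 16IC 1 to 3, against 48.2, 76.2 and 28.9% in EIC 1 to 3. Cdh2 made up 4.79, 5.40 and 27.8% in 16IC 1 to 3, against 27.2, 21.0 and 28.4% in EIC 1 to 3. Cdh1 exceeded Cdh2 per length in all 6 lines, by 19.5, 17.2 and 2.20-fold in 16IC 1 to 3 and by 1.77, 3.62 and 1.02-fold in EIC 1 to 3. EIC 3 thus had nearly equal levels of both cadherins, and 16IC 3 lay between EIC 1 and EIC 2. The mean log2 ratio of Cdh1 to Cdh2 was 3.17 ± 1.77 in 16IC and 0.90 ± 0.92 in EIC (SD, n = 3 each). The groups overlapped in this ratio, which as a score over members was given no test.

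The summed level of the listed cadherins was 247, 234 and 96.8 CPM per kilobase in 16IC 1 to 3, against 40.2, 88.2 and 42.6 in EIC 1 to 3. Most of the gap between the high and low lines was in Cdh1 itself, whose level per length ran from 12.3 in EIC 3 to 230 in 16IC 1. Cdh2 stayed within 10.9 to 26.9 CPM per kilobase throughout. T-cadherin (Cdh13), which is held by a lipid anchor and has no catenin-binding tail, had 3.19, 8.99 and 5.64 CPM in 16IC 1 to 3, against 72.9, 0.241 and 147 CPM in EIC 1 to 3. It took 16.1 and 30.8% of the summed level in EIC 1 and EIC 3, and 0.0243% in EIC 2, so that the EIC lines fell on either side of the 16IC lines.

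Of 18 other cadherins listed, 9 had a row and 4 were tested, and edgeR and limma-voom called 0 of them, none having an unadjusted edgeR p under 0.05 (0 genes), while DESeq2 called Cdh13. The shares over all tested genes were 2.45% called by edgeR, 2.1% by limma-voom and 22.7% at that unadjusted p. DESeq2 called 12.8% of genes with an adjusted p. Cdh13 had a log2 fold change of -3.63 (edgeR adjusted p = 0.255), and it was called without EIC 2 (log2 fold change -4.22, adjusted p = 0.0451) and with DESeq2 (0.0379). Cdh19, a type II cadherin known from Schwann cell precursors, was highest in 16IC 3 (37.1 CPM, against 1.02 and 2.75 CPM in 16IC 1 and 2) and had 8.33, 0.481 and 17.2 CPM in EIC 1 to 3. Its edgeR log2 fold change was 0.65 (adjusted p = 0.840), and -2.19 without 16IC 3 (adjusted p = 0.349). Cdh24 and Cdh17 reached at most 10.1 and 3.79 CPM in any line, and neither was called (edgeR adjusted p = 0.608 and 0.26). Cdh5, the endothelial cadherin, had at most 1 count in a line.

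**Figure D2:**
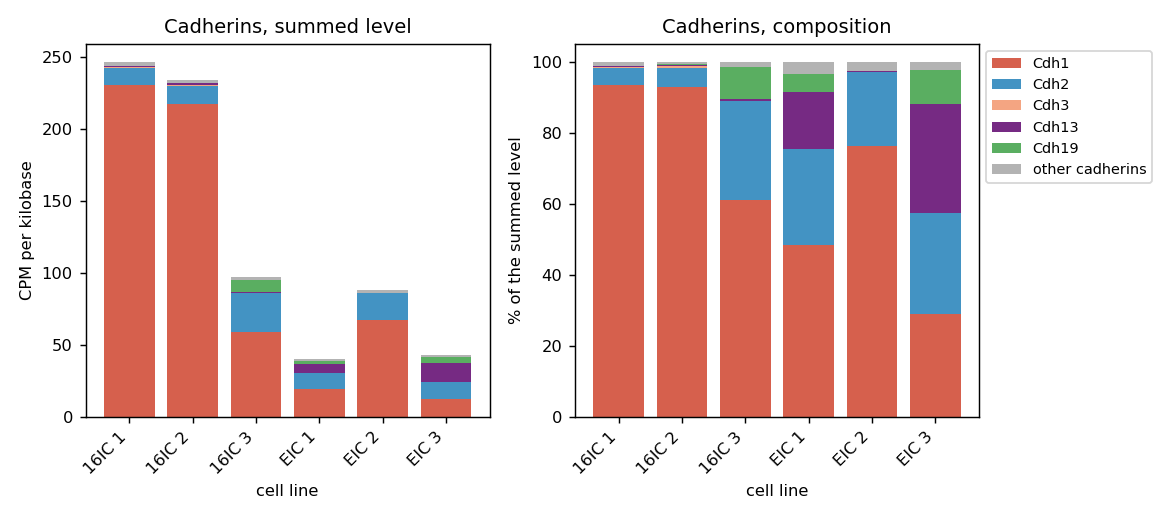
Stacked bars of cadherin levels per length in each line, 16IC at left and EIC at right, as CPM per kilobase (left panel) and as a percentage of the sum over the 12 listed cadherins with a row (right panel). Cdh1 dominates in 16IC 1 and 16IC 2, Cdh2 takes 21.0 to 28.4% in 16IC 3 and the EIC lines, and Cdh13 takes 16.1 and 30.8% in EIC 1 and EIC 3.

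The catenins varied less between lines than Cdh1 did, by at most 2.04-fold from the lowest to the highest line, against 18.7-fold for Cdh1. Ctnnb1 (ENSMUSG00000006932, chromosome 9, 120929216 to 120960507), which encodes beta-catenin, had 965, 921 and 1148 CPM in 16IC 1 to 3, against 673, 791 and 677 CPM in EIC 1 to 3. The groups did not overlap, and the highest line was 16IC 3. The log2 fold change was 0.50 (SE 0.21, 95% interval -0.00 to 1.01, edgeR adjusted p = 0.222), and no alternative called it. In the mouse annotation GENCODE M21, 14.6% of its exon bases are shared with Ulk4 on the opposite strand.

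Ctnna1 (ENSMUSG00000037815, chromosome 18, 35118888 to 35254773), which encodes alpha-catenin, had 919, 936 and 566 CPM in 16IC 1 to 3, against 614, 650 and 554 CPM in EIC 1 to 3. The 16IC 3 line lay within the EIC range and the other 16IC lines above it. The log2 fold change was 0.41 (SE 0.26, 95% interval -0.22 to 1.04, edgeR adjusted p = 0.401). Leaving out 16IC 3 gave 0.61, again not called (adjusted p = 0.0568).

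Ctnnd1 (ENSMUSG00000034101, chromosome 2, 84600071 to 84650765), which encodes p120-catenin, had 92.8, 83.8 and 70.8 CPM in 16IC 1 to 3, against 45.5, 53.4 and 50.4 CPM in EIC 1 to 3. Each 16IC line was higher than each EIC line, and the spread within a group was small (mean 82.5 ± 11.1 CPM for 16IC, 49.7 ± 3.99 CPM for EIC, SD, n = 3 each). The log2 fold change was 0.73 (SE 0.17, 95% interval 0.31 to 1.15), short of the threshold in edgeR's test (adjusted p = 0.0825) and called without 16IC 3 (adjusted p = 0.0287) and with DESeq2 (0.0453). In GENCODE M21 a further gene model on the same strand, Gm28635, shares 61.2% of the exon bases of Ctnnd1. Reads there belong to either model, and the labels do not say how the authors' counting treated them, so the level of Ctnnd1 is uncertain and its isoforms cannot be told apart.

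Per length, the order of Ctnnb1 and Ctnna1 turned on the length taken for Ctnna1, which is 3698 bases in the deposited table and 6425 exon bases in GENCODE M21. With the table's length Ctnnb1 stood at 0.701 to 1.44 times Ctnna1 over the 16IC lines and 0.781 to 0.871 times over the EIC lines, and with the GENCODE length at 1.22 to 2.51 times and 1.36 to 1.51 times, so no order of the pair is given. The ratio was highest in 16IC 3 with either length. Set against the sum of Cdh1 and Cdh2, Ctnnb1 was at 0.768, 0.771 and 2.57 times that sum per length in 16IC 1 to 3, and at 4.27, 1.78 and 5.34 times in EIC 1 to 3. This ratio was lowest in the lines with the most Cdh1, while Ctnnb1 itself spanned 1.71-fold across all 6 lines. Since Cdh1 is part of the divisor, that order follows largely from the arithmetic and is no separate result.

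Among the 6 tested members edgeR and limma-voom each called 0, where they called 2.45% and 2.1% of all tested genes. DESeq2, which also gave Cdh3 an adjusted p, called 4 of 7 members, Cdh1, Cdh3, Epcam and Ctnnd1. It called 12.8% of genes with an adjusted p. Without 16IC 3 edgeR also tested Cdh3 and called 3 of 7, Cdh3, Epcam and Ctnnd1, where the share of all tested genes was 13.4%. That fit holds only the nearly alike lines 16IC 1 and 16IC 2 for 16IC. With all lines kept and those lines averaged, edgeR called 0 members and 0 of all tested genes. The count for that averaged fit is thus not particular to the members. At an unadjusted p under 0.05 there were 3 of 6 (Epcam, Ctnnd1 and Cdh1), against 22.7% of all tested genes. In 3 of 6 (Epcam, Ctnnb1 and Ctnnd1) every 16IC line lay above every EIC line, against 17.2% of tested genes, and in 0 of 6 below, against 14.2%. In the authors' deposited table the adjusted p was under 0.05 for Epcam (log2 fold change 8.87), Cdh3 (5.42), Cdh1 (2.34) and Ctnnd1 (0.70), and 0.183, 0.509 and 0.791 for Ctnnb1, Ctnna1 and Cdh2. These values were nearly those of the DESeq2 fit to the same counts (for Cdh1 a deposited log2 fold change of 2.33862, against 2.33863). They are thus no separate evidence beside the DESeq2 calls.

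**Figure D3:**
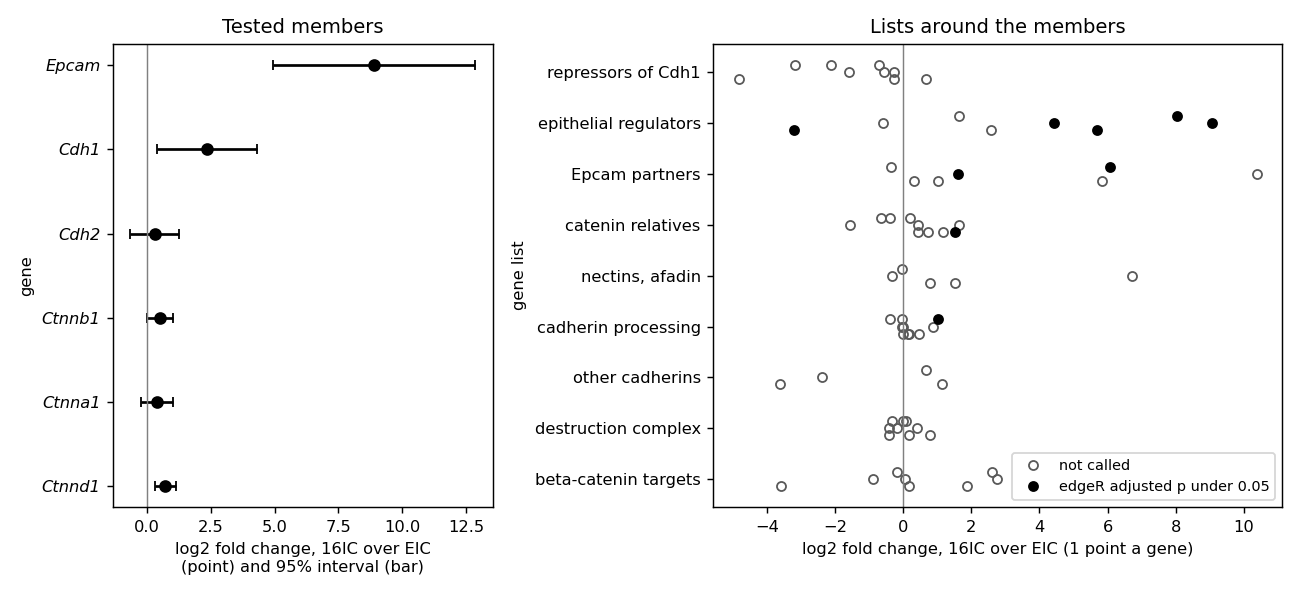
Log2 fold changes of 16IC over EIC from edgeR. The left panel gives the 6 tested members with 95% intervals, of which those of Ctnnb1, Ctnna1 and Cdh2 reach below 0, and the right panel gives 1 point a gene for 9 lists around the members, with filled points for an adjusted p under 0.05.

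Transcription factors known to repress Cdh1 were examined as a list. Counts for this and the lists that follow are to be read beside the shares over all tested genes. These were 2.45% called by edgeR, 2.1% by limma-voom and 22.7% with an unadjusted edgeR p under 0.05. DESeq2 called 12.8% of genes with an adjusted p. Log2 fold changes were below 0 for 8 of the 9 tested, and their median was -0.72, against -0.00 over all tested genes. EdgeR called 0 of the 9, of which 2 had an unadjusted p under 0.05, limma-voom called Twist1, and DESeq2 called Twist1 and Twist2. Twist1, an E-box factor of mesenchymal cells, had 6.75, 4.47 and 19.7 CPM in 16IC 1 to 3, against 85.0, 79.1 and 113 CPM in EIC 1 to 3, groups that did not overlap (log2 fold change -3.17, edgeR adjusted p = 0.0540). Its relative Twist2 had 0, 0 and 0.649 CPM in 16IC 1 to 3, against 1.83, 15.2 and 1.55 CPM in EIC 1 to 3 (edgeR adjusted p = 0.170).

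Zeb1 and Zeb2, zinc-finger E-box repressors, divided the lines in another way. Zeb1 had 1.57, 2.33 and 45.7 CPM in 16IC 1 to 3, against 38.4, 57.8 and 53.2 CPM in EIC 1 to 3. Zeb2 had 0.0602, 1.84 and 51.8 CPM in 16IC 1 to 3, against 74.9, 92.3 and 68.5 CPM in EIC 1 to 3. 16IC 3 was thus within or close to the EIC range for both, and edgeR called neither (adjusted p = 0.50 and 0.499). Without 16IC 3 edgeR called both lower in 16IC, with log2 fold changes of -4.68 and -6.37 (adjusted p = 0.00556 and 0.0246). The 16IC group of that fit is the nearly alike lines 16IC 1 and 16IC 2, so these p-values do not cover the spread to 16IC 3. Snai1 had 17.0, 15.4 and 7.78 CPM in 16IC 1 to 3, against 13.2, 31.3 and 14.4 CPM in EIC 1 to 3, with no call. Snai1, like the other genes of this paragraph and the next that the naming rule did not take, was picked after its values were seen.

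Mesenchymal markers were examined beside these. Vim, the intermediate filament gene of mesenchymal cells, had 108, 182 and 2099 CPM in 16IC 1 to 3, against 2684, 4398 and 3734 CPM in EIC 1 to 3. The 5 mesenchymal markers summed to 161, 258 and 3677 CPM in 16IC 1 to 3, against 4509, 8967 and 5443 CPM in EIC 1 to 3. Itga5, a fibronectin receptor subunit, was the list's 1 edgeR call and fell to 29.6 ± 6.69 CPM over the 16IC lines, against 242 ± 129 CPM over the EIC lines (SD, n = 3 each, adjusted p = 0.0390). EIC 2, with the highest Vim and mesenchymal sum, was also the EIC line with the most Cdh1 (307 CPM). In 4 of the 5 markers every 16IC line lay below every EIC line, against 14.2% of tested genes. Fn1 overlapped, with 27.8, 31.6 and 1511 CPM in 16IC 1 to 3, against 1301, 3673 and 905 CPM in EIC 1 to 3. In the sum, 16IC 3 lay nearer to EIC 1 than to the other 16IC lines. Vim and Fn1 made up most of the sum in 16IC 3, and the other markers did not share this placing. Itga5, Sparc and S100a4 had 30.6, 31.1 and 4.86 CPM in 16IC 3, against at least 126, 282 and 21.9 CPM in EIC lines. For Itga5 16IC 3 lay between the other 16IC lines, and for Sparc and S100a4 above them. The part of these genes in the difference of Cdh1 and Epcam was not tested.

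Epithelial regulators gave the most calls of the lists: of 8 tested, edgeR called 4 higher and 1 lower in 16IC, with a median log2 fold change of 3.50. The share called over all tested genes was 2.45%. Limma-voom called 2 of these, Grhl1 and Klf4, and not Esrp1, Esrp2 or Elf5 (adjusted p = 0.117, 0.112 and 0.183). Esrp1, a splicing regulator of epithelial cells, had 205, 217 and 25.8 CPM in 16IC 1 to 3, against 0.741, 0.0601 and 0.870 CPM in EIC 1 to 3 (edgeR adjusted p = 0.0391). As for Epcam, 16IC 3 was the lowest 16IC line and lay above every EIC line. The same order held for Esrp2 (105, 114 and 15.8 CPM in 16IC 1 to 3, against 1.08, 2.53 and 0.870 CPM in EIC 1 to 3) and Elf5 (41.5, 63.0 and 2.79 CPM in 16IC 1 to 3, against at most 0.124 CPM in EIC), with edgeR adjusted p = 0.0432 and 0.0462. Grhl1, a grainyhead factor of epithelia, had 20.9, 18.4 and 14.1 CPM in 16IC 1 to 3, against 0.741, 0.962 and 0.746 CPM in EIC 1 to 3 (edgeR adjusted p = 0.0181), and 16IC 3 lay close to the other 16IC lines. Klf4, a factor that can activate Cdh1, went the other way, with 11.7, 18.1 and 5.19 CPM in 16IC 1 to 3, against 126, 86.0 and 114 CPM in EIC 1 to 3 (edgeR adjusted p = 0.0390).

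**Figure D4:**
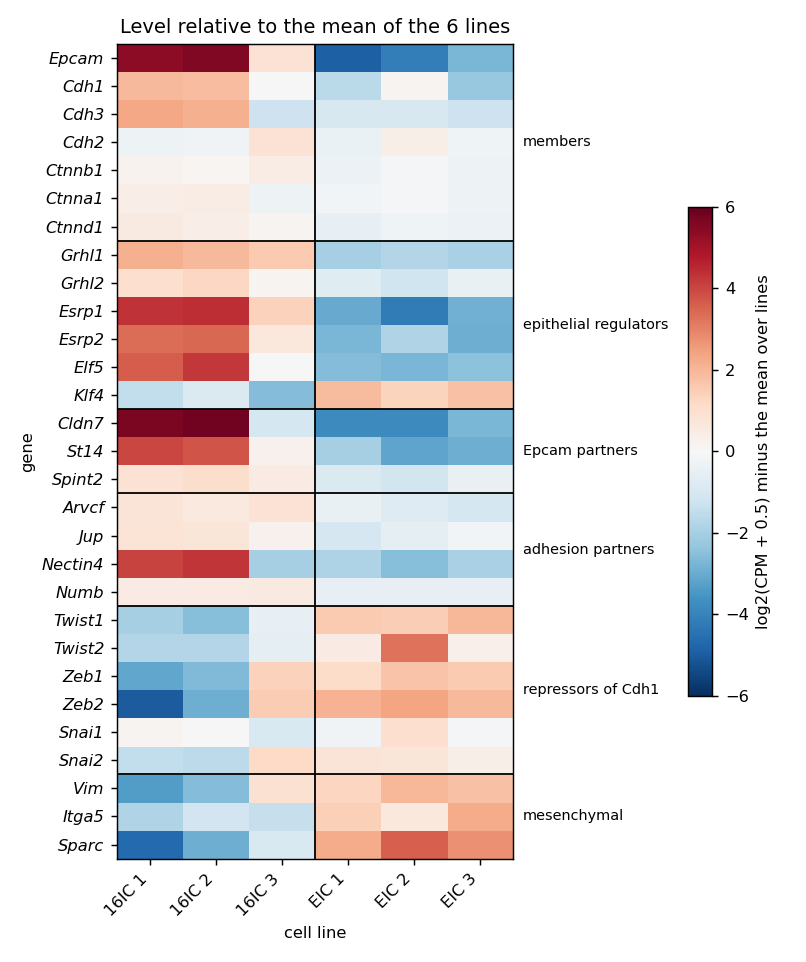
Heat map of log2(CPM + 0.5) minus the mean over the 6 lines, for the members and for genes of the lists around them that were picked after their values were seen, with 16IC at left of the vertical line and EIC at right. In 16IC 3 Cdh1 is near the mean of all lines, Epcam and Esrp1 are above it, and Zeb1, Zeb2, Snai2 and Vim are above it as well. Twist1, Twist2, Snai1, Itga5 and Sparc are below the mean of all lines in 16IC 3.

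Genes that act with Epcam or on it were called higher in part. Of 7 tested, 6 had a positive log2 fold change (median 1.60), and edgeR called Spint2 and St14. St14, the membrane protease matriptase, which cleaves Epcam, had 577, 504 and 43.5 CPM in 16IC 1 to 3, against 8.78, 3.61 and 4.23 CPM in EIC 1 to 3 (edgeR adjusted p = 0.0492). That call was kept in 5 of 14 alternatives, and was lost among others with limma-voom (adjusted p = 0.0979), the robust edgeR fit (0.0525) and no filter (0.0507). Spint2, an inhibitor of that protease, had 602, 691 and 466 CPM in 16IC 1 to 3, against 184, 155 and 240.5 CPM in EIC 1 to 3 (edgeR adjusted p = 0.0432). Claudin-7 (Cldn7), which binds Epcam directly, had 356, 393 and 2.85 CPM in 16IC 1 to 3, against 0, 0 and 0.560 CPM in EIC 1 to 3, without a call (edgeR adjusted p = 0.0717). Cldn7 was picked after its values were seen.

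Relatives of the catenins and other partners of the cadherin tail gave 1 edgeR call among 10 tested, with 7 positive and 3 negative log2 fold changes and a median of 0.43. Among the negative, Ctnnal1 had 12.8, 16.8 and 66.1 CPM in 16IC 1 to 3, against 81.3, 87.0 and 117 CPM in EIC 1 to 3, without overlap (edgeR adjusted p = 0.218). Vcl was also lower (log2 fold change -0.64, edgeR adjusted p = 0.208). Both were named after their values were seen. Arvcf, a member of the p120-catenin family, had 36.9, 32.9 and 40.2 CPM in 16IC 1 to 3, against 15.8, 12.3 and 10.2 CPM in EIC 1 to 3 (log2 fold change 1.52, SE 0.24, edgeR adjusted p = 0.0423). Plakoglobin (Jup), the relative of beta-catenin that also serves desmosomes, had 947, 905 and 649 CPM in 16IC 1 to 3, against 266, 366 and 478 CPM in EIC 1 to 3 (edgeR adjusted p = 0.0899), and was named after its values were seen. Per length, Jup was at 0.792, 0.793 and 0.456 times Ctnnb1 in 16IC 1 to 3 and at 0.319, 0.373 and 0.570 times in EIC 1 to 3.

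Nectins are immunoglobulin-type adhesion molecules that are tied to actin by afadin. Of the 5 genes tested, 4 nectins and afadin, edgeR and limma-voom called 0 and DESeq2 called 1, where it called 12.8% of genes with an adjusted p. An unadjusted edgeR p under 0.05 was found for 3 (Nectin3, Nectin4 and Afdn), against 22.7% of all tested genes. The DESeq2 call was Nectin4, an epithelial nectin, which had 67.2, 79.1 and 0.519 CPM in 16IC 1 to 3, against 0.627, 0.180 and 0.560 CPM in EIC 1 to 3 (edgeR adjusted p = 0.0929). As with Cdh3, only 16IC 1 and 16IC 2 of the 6 lines had more than trace counts. Afadin (Afdn) had 438, 459 and 273 CPM in 16IC 1 to 3, against 265, 180 and 229 CPM in EIC 1 to 3 (edgeR adjusted p = 0.158). Nectin3 had 101, 123 and 32.4 CPM in 16IC 1 to 3, against 34.3, 19.5 and 35.5 CPM in EIC 1 to 3 (edgeR adjusted p = 0.157), and Nectin1 had 93.4 ± 28.5 CPM over the 16IC lines and 116 ± 12.3 CPM over the EIC lines (SD, n = 3 each, edgeR adjusted p = 0.525).

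Genes of cadherin processing and turnover gave 1 edgeR call among 10 tested (median log2 fold change 0.06). Numb, an endocytic adaptor that binds E-cadherin, had 60.7, 60.5 and 63.4 CPM in 16IC 1 to 3, against 30.2, 30.2 and 30.3 CPM in EIC 1 to 3 (log2 fold change 1.02, SE 0.15, edgeR adjusted p = 0.0390). Its level was highest in 16IC 3 among the 6 lines. Adam10, the protease that sheds the E-cadherin ectodomain, was not called, with 423 ± 38.6 CPM over the 16IC lines and 386 ± 124 CPM over the EIC lines (SD, n = 3 each, edgeR adjusted p = 0.815), and was named after its values were seen.

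Beta-catenin also acts as a transcriptional coactivator, and its destruction complex and target genes were listed for that reason. Of 9 tested members of the destruction complex none of the 3 tools (edgeR, limma-voom, DESeq2) called any, the count being 0 in each. Their shares over all genes were 2.45%, 2.1% and 12.8%. An unadjusted edgeR p under 0.05 was found for 2 of the 9, close to the 22.7% of all tested genes. The median log2 fold change was -0.02. Apc, the scaffold of the complex, had 144 ± 6.04 CPM over the 16IC lines and 110 ± 4.42 CPM over the EIC lines (SD, n = 3 each, edgeR adjusted p = 0.168). Amer1 (0.79), Axin1 (-0.34) and Fbxw11 (-0.42), given as log2 fold changes, were not called either. Of 8 tested beta-catenin targets edgeR and limma-voom called 0, while 4 had an unadjusted edgeR p under 0.05, against 22.7% of all tested genes. DESeq2 called 2, against 12.8% of genes with an adjusted p, in opposite directions: Tcf7 higher and Notum lower in 16IC. Tcf7 had 32.9, 38.9 and 8.89 CPM in 16IC 1 to 3, against 7.19, 4.93 and 9.70 CPM in EIC 1 to 3. Notum, a secreted Wnt inhibitor, had 3.43, 5.81 and 29.1 CPM in 16IC 1 to 3, against 27.0, 324 and 107 CPM in EIC 1 to 3. Rnf43 and Sp5 had log2 fold changes of 2.75 and 2.61 (edgeR adjusted p = 0.213 and 0.178), and Axin2, a common readout of the pathway named after its values were seen, had 11.8 ± 7.75 CPM over the 16IC lines and 10.5 ± 7.53 CPM over the EIC lines (SD, n = 3 each, edgeR adjusted p = 0.912). By line Axin2 had 7.71, 6.85 and 20.7 CPM in 16IC 1 to 3, against 4.45, 18.9 and 8.14 CPM in EIC 1 to 3, so 16IC 3 and EIC 2 were highest.

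Over the 9 lists edgeR called 9 genes, where it called 2.45% of all tested genes. All 9, and Itga5, were called without 16IC 3 (edgeR adjusted p at most 0.0290), where 13.4% of all tested genes were called. Without 16IC 1, 16IC 2, EIC 1 or EIC 3, 0 of these 10 were called, where 5, 0, 0 and 0 of all tested genes were. Without EIC 2, 2 of the 10 were called, where 282 of all tested genes were. With 16IC 1 and 16IC 2 averaged, 0 of the 10 and 0 of all tested genes were called. The lost calls are thus not particular to these 10 genes.

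The genes whose profile over the 6 lines was most like that of a member were taken by the root-mean-square difference of log2(CPM + 0.5), each gene centred on its mean, over 10311 genes with a mean of at least 5 CPM. For Epcam the nearest were Ildr1 (0.75), Cldn7 (0.93), Cited4 (0.99), Fermt1 (1.0) and Esrp1 (1.01), in log2 units. For Cdh1 they were Slc37a1 (0.27), Inava (0.30), Ctf1 (0.41), Cdkl2 (0.44) and Sgk3 (0.44), all with EIC 2 as the highest EIC line. Cdh1 itself differed from Epcam by 3.05 log2 units, from Cdh3 by 0.86 and from Cdh2 by 1.61. For Cdh2 the nearest were Crnde, Paxx, Chfr, Elac1 and Nfix (0.10 to 0.11), all highest in 16IC 3. For Cdh3 they were Lad1, Cadm4, Inhba, Dbn1 and Lonrf1 (0.22 to 0.36), all highest in 16IC 1 and 16IC 2. That these genes share the highest lines of their member follows from the choice by profile and is no separate result. With a pseudocount of 2 in place of 0.5, 4 of the 5 genes for Epcam stayed nearest, against 1 for Cdh1, 2 for Cdh2 and 0 for Cdh3.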

How the data were processed

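RNA-seq of 6 cell lines was used. The builds GRCm38 and mm10 are named per the submitters' processing notes, as are limma, edgeR, HTSeq, STAR and Trimmomatic, without roles or settings. The deposited table gives the authors' whole-number count per gene and library, the count divided by a size factor (a normalised signal, with its mean per group), and FPKM from the table's gene length. It also holds the authors' log2 fold change, p-value and adjusted p-value for 16IC over EIC, deposited with no tool named. For the members these fold changes were nearly those of the DESeq2 fit.

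From the counts, genes were filtered with filterByExpr (minimum count 10), scaled by TMM and tested with glmQLFit and glmQLFTest of edgeR (version 4.0.16 under R 4.3.3), with limma 3.58.1 and DESeq2 1.42.0 as alternatives. A gene was called at a Benjamini-Hochberg adjusted p under 0.05 over all tested genes, two-sided. SE is the fold change over the root of F. Library totals above set the precision, and a count of 0 allows up to 3 counts. Every member was named. From each list all called genes were named, or else up to 4 with the smallest p. Members and lists were chosen with earlier results of these data known. Alternatives were other scaling factors, filters, thresholds and tests, averaging 16IC 1 with 16IC 2, and leaving out each line.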

Additional observations from a re-analysis of the deposited data

How the results depend on the processing

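The number of genes called by edgeR, 335 with all lines, ran from 0 to 1913 when a line was left out (1913 without 16IC 3, 282 without EIC 2, 5 without 16IC 1, and 0 without 16IC 2, EIC 1 or EIC 3, with 2251 to 2627 genes at an unadjusted p under 0.05 in those 3 fits). It was 223 with no filter on low counts, 0 with 16IC 1 and 16IC 2 averaged (2257 at an unadjusted p under 0.05), 2041 with DESeq2, 0 at an adjusted p under 0.01 and 1184 at 0.1. Of the members, 0 were called with all lines, 0 to 3 when a line was left out, 1 with the filter of 1 CPM in 3 libraries, 4 with DESeq2 and 2 at an adjusted p under 0.1. Of genes in the 9 lists, 9 were called with all lines, 0 to 28 when a line was left out, 5 with no filter, 0 with the averaged pair, 23 with DESeq2, 0 at 0.01 and 14 at 0.1. Without 16IC 3 the log2 fold change turned to -0.18 for Cdh2 and to -2.19 for Cdh19, the lowest values when a line was left out, where the highest were 0.56 and 1.61. The cause was not tested. Scaling moved the median of all genes by at most 0.06 log2 and turned the direction of no member. The mean log2 ratio of Cdh1 to Cdh2 ran from 2.62 to 4.19 in 16IC (4.19 without 16IC 3) and from 0.43 to 1.34 in EIC when a line was left out. With GENCODE lengths, chosen after the data were seen, it stayed at 3.17 in 16IC and 0.90 in EIC. Limma-voom called 6 genes of the 9 lists, of which 5 were among the 9 called by edgeR. No paired analysis was possible because the labels pair no line of 16IC with a line of EIC. Low counts limit Cdh3, and Epcam in EIC.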
